A study of Mus musculus with 6 samples.

Results

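Adherens junctions hold neighboring ECs together, and the genes described here encode their core parts and close partners. There were 9 of them among the 56748 gene rows of the count table: the cadherins *Cdh5* and *Cdh2*, the catenins *Ctnnb1*, *Jup*, *Ctnna1* and *Ctnnd1*, the nectin *Nectin2* with its cytoplasmic partner *Afdn*, and *Pecam1*. They were chosen by gene symbol and role, each symbol occurred in 1 row, and all 9 were among the 13107 genes that passed the filter on low counts and were tested. The counts came from ECs sorted from the spinal cords of P16 mice, with 1 RNA-Seq library per mouse. The 3 control mice carried floxed *Tardbp* (the gene of TDP-43, with loxP sites around the third exon) and no Cre. The 3 *TDP-43iΔEC* mice carried the same floxed allele together with the *Cdh5(PAC)-CreERT2* transgene. Control and *TDP-43iΔEC* mice alike were given tamoxifen (1 mg/mL) from P5 to P7. The mice were on a C57BL/6 background, both sexes were used, and the sex of each library was not used here. The transgene drives Cre from the *Cdh5* promoter, so presence of Cre and loss of TDP-43 cannot be told apart in this design. CD31, the product of *Pecam1*, is among the antibody targets listed for flow cytometry, along with CD45 and TER-119, so the level of *Pecam1* is tied to how cells were selected.

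In ECs, VE-cadherin (*Cdh5*) reaches across the gap between cells and binds its like on the neighboring cell. On the cytoplasmic side, p120-catenin (*Ctnnd1*) binds close to the membrane and keeps the cadherin from being internalized, while β-catenin (*Ctnnb1*) or plakoglobin (*Jup*) binds further along the tail and recruits α-catenin (*Ctnna1*), which links the complex to actin. The nectins and afadin (*Afdn*) form a second adhesion system at the same borders. β-Catenin is also the transcriptional effector of Wnt signaling, which CNS vessels need to form and keep their barrier. TDP-43 binds UG-rich RNA and regulates its splicing and stability.

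The libraries held between 25704871 and 47270654 counts, at which 3 counts correspond to 0.0635 to 0.117 CPM (counts scaled to the same library total), and the 9 genes took 0.283% to 0.404% of the counts of a library. Levels are given below as normalized counts, the deposited counts divided by the size factor of the library. The deleted gene, *Tardbp*, was counted at 1973, 2282 and 2069 in control mice 1 to 3 and at 982, 599.9 and 433 in *TDP-43iΔEC* mice 1 to 3. All values of *TDP-43iΔEC* mice lay below those of control mice, with a log2 fold change of -1.62 (SE 0.41) and an adjusted p of 0.287 by limma with Benjamini-Hochberg adjustment over all tested genes. These counts cover the whole gene and not the floxed exon alone, and 33.1% of the *Tardbp* exons overlap *Masp2* on the opposite strand. EC markers (8 genes, including *Cldn5* and *Tie1*) summed to 9331 to 12805 CPM in control and 9538 to 11649 CPM in *TDP-43iΔEC* libraries. Taken singly, they did not all overlap between genotypes. *Flt1* (log2 fold change -0.69, adjusted p = 0.0635, limma), *Kdr* (-0.26) and *Tek* (-0.35) were lower in all *TDP-43iΔEC* mice. *Egfl7* (0.43) was higher in all of them, and *Cldn5*, *Tie1*, *Erg* and *Vwf* overlapped. The same 8 genes served for the EC marker scaling described below. Markers of neurons summed to at most 9.40 CPM, those of microglia and macrophages to at most 8.21 CPM, and those of epithelial or ependymal cells to at most 0.681 CPM, and *Tubb3*, *Itgam*, *Epcam*, *Krt8* and *Krt18* had 0 counts in every library. Fibroblast markers summed to between 12.8 and 43.9 CPM. RNA of mural and glial cells was present in larger amounts: 448 to 1120 CPM for 10 mural markers, 139 to 254 CPM for 6 astrocyte markers, and for 6 oligodendrocyte lineage markers 288 to 546 CPM in control and 503, 59.5 and 15.7 CPM in *TDP-43iΔEC* mice 1 to 3. The astrocyte sum did not overlap between genotypes (217 to 254 CPM in control and 139 to 195 CPM in *TDP-43iΔEC* libraries), and most of it was *Gja1*, a gap junction gene that ECs also express. In these bulk samples, fewer cells of a type and less RNA per cell cannot be told apart. Multidimensional scaling put control mouse 2 away from the rest on dimension 1, which held 29.4% of the variance, and *TDP-43iΔEC* mouse 1 on dimension 2, with 23.0%, so the estimates of the 9 genes without these libraries are given with the results. Nothing in the labels says whether the mice shared a litter or a preparation day.

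Across the comparison of *TDP-43iΔEC* with control ECs, 0 of the 9 junction genes passed an adjusted p of 0.05 with limma, and 0 had an unadjusted p under 0.05. Over all tested genes, the shares were 0.137% (18 of 13107) and 9.27% (1215). With edgeR and with DESeq2, 0 of the 9 passed as well, and the numbers with an unadjusted p under 0.05 were 0 and 1. The log2 fold changes were above 0 for 4 genes and below 0 for 5, and their median was -0.04, beside -0.02 for all tested genes. *Ctnnd1* was the 1 gene of the 9 for which the genotypes did not overlap. Among all tested genes, 15.0% (1970) did not overlap.

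**Figure D1:**
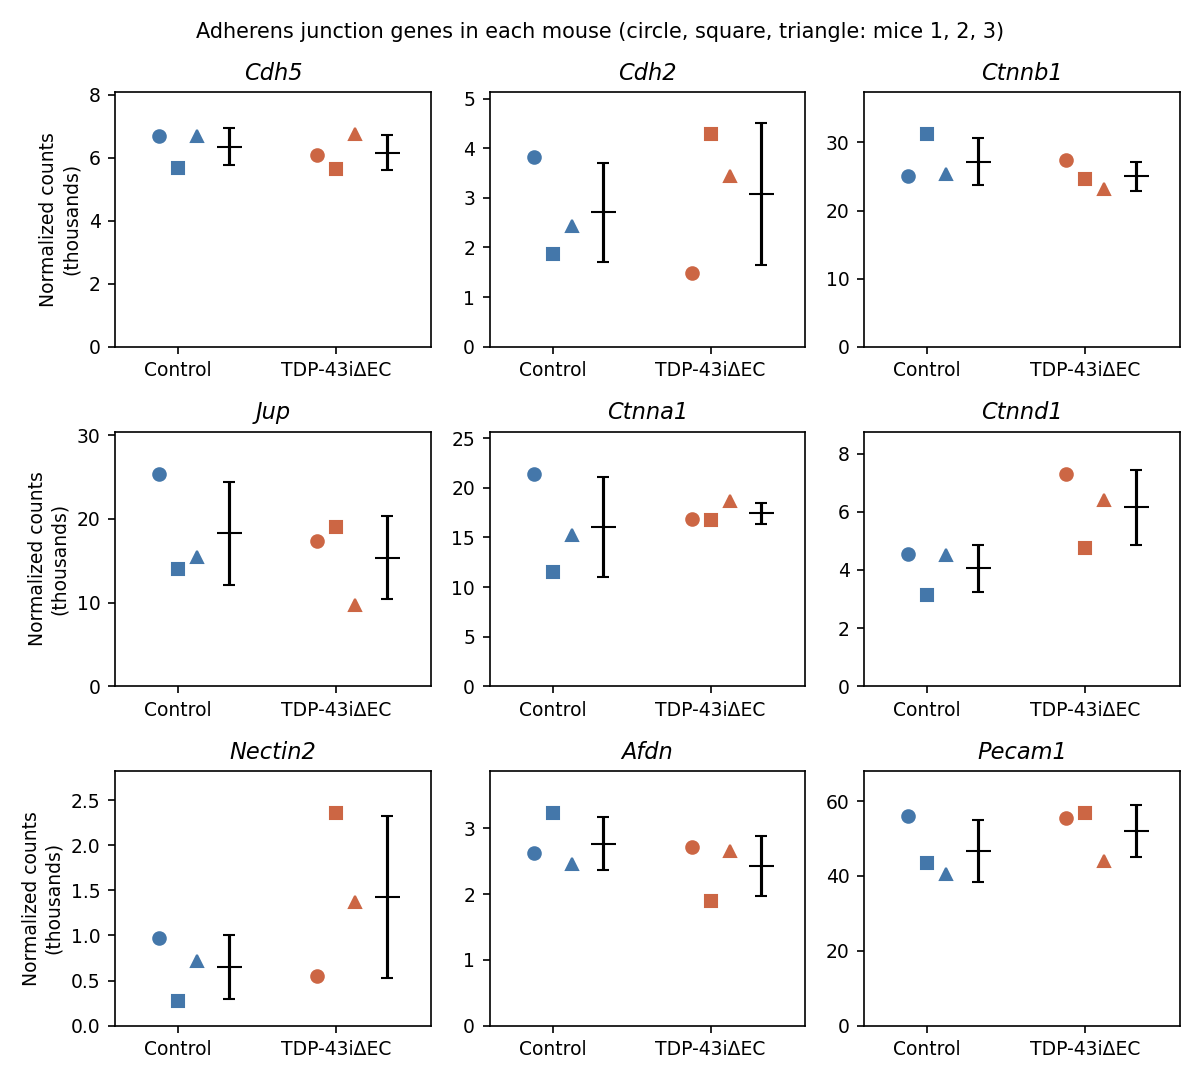
Normalized counts (vertical axis, from 0, in the unit printed there) of the 9 adherens junction genes in each of the 3 control and 3 TDP-43iΔEC mice; circle, square and triangle are mice 1, 2 and 3 of a genotype, and the bar with whiskers is the mean ± SD. The groups are apart for Ctnnd1, with all TDP-43iΔEC mice above 4546, and overlap for the other 8 genes.

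*Cdh5*, on chromosome 8 (104828231 to 104871143, GRCm39, plus strand), encodes VE-cadherin, the adhesion receptor that is particular to the endothelium. Its normalized counts were 6705, 5668 and 6702 in control mice 1 to 3 and 6096, 5635 and 6745 in *TDP-43iΔEC* mice 1 to 3. The 2 groups covered nearly the same range, and the highest and the lowest of the 6 libraries differed by 1.20-fold, the least among the 9 genes. The means were 6358 ± 597 and 6159 ± 558 (SD, n = 3 each), and the log2 fold change of -0.09 (SE 0.19) had a 95% interval from 0.694-fold to 1.27-fold (adjusted p = 0.899, limma). It was -0.19 without control mouse 2 and -0.09 without *TDP-43iΔEC* mouse 1. Leaving out control mouse 2 moved the median of all genes to -0.17. By the normalized counts above, the groups still overlap without that mouse. They were apart only with size factors computed anew from the remaining libraries. A lower or a higher *Cdh5* level within those bounds was not excluded at this number of mice. Whether transcripts of the transgene added to these counts was not tested.

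*Cdh2*, on chromosome 18 (16700793 to 16942381, minus strand), encodes N-cadherin, which ECs share with the pericytes, astrocytes and neurons they contact. Its normalized counts were 3817, 1863 and 2436 in control mice 1 to 3 and 1491, 4279 and 3449.8 in *TDP-43iΔEC* mice 1 to 3, so that the lowest and the highest value both came from *TDP-43iΔEC* mice. The mean was higher in *TDP-43iΔEC* than in control mice (3073 ± 1431 and 2705 ± 1004), whereas the log2 fold change of limma was -0.04 (SE 0.45, 0.480-fold to 1.96-fold, adjusted p = 0.985). This sign was not stable: it was 0.53 without *TDP-43iΔEC* mouse 1, -0.29 without control mouse 2 and 0.16 when scaled by library size only. The last 2 of these settings moved the median of all genes to -0.17 and 0.18. The summed mural markers were highest in *TDP-43iΔEC* mouse 2 (1120 CPM), as was *Cdh2*, but lowest in *TDP-43iΔEC* mouse 3 (448 CPM), where *Cdh2* was above 2 of the controls. The part of other cell types in the *Cdh2* values was not tested.

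Among the catenins, *Ctnnb1* (chromosome 9, 120757422 to 120789579, plus strand) was the most abundant. β-Catenin transcripts reached 25009, 31175 and 25378 normalized counts in control mice 1 to 3 and 27358, 24558 and 23192 in *TDP-43iΔEC* mice 1 to 3. Control mouse 2 was highest, *TDP-43iΔEC* mouse 1 lay between the control values, and the groups overlapped. Means of 27187 ± 3459 and 25036 ± 2124 gave a log2 fold change of -0.14 (SE 0.14), with an interval from 0.731-fold to 1.13-fold (adjusted p = 0.764, limma). Without *TDP-43iΔEC* mouse 1 the groups no longer overlapped and the log2 fold change was -0.22, without control mouse 2 it was -0.06, and with library size scaling, which moves the median of all genes to 0.18, it was 0.05. Exons of *Ctnnb1* overlap those of *Ulk4* and 4930593C16Rik on the opposite strand over 11.7% of their length, *Mir7090* included. These 2 neighbors had at most 27 counts and 1 count in a library.

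*Jup* encodes plakoglobin, which can take the place of β-catenin at the cadherin tail, and lies on chromosome 11 (100259784 to 100291103, minus strand). Its normalized counts were 25383, 13969 and 15467 in control mice 1 to 3 and 17372, 19045 and 9722 in *TDP-43iΔEC* mice 1 to 3. The highest value was that of control mouse 1 and the lowest that of *TDP-43iΔEC* mouse 3, with the other 4 mice in between and mixed. The log2 fold change was -0.26 (SE 0.30, 0.523-fold to 1.34-fold, adjusted p = 0.800, limma). It was -0.45 without control mouse 2 and -0.40 without *TDP-43iΔEC* mouse 1, whereas it came to 0.0097 without control mouse 1 and to 0.0037 without *TDP-43iΔEC* mouse 3.

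*Ctnna1*, the gene of αE-catenin, is on chromosome 18 (35226033 to 35387833, plus strand). Control mice 1 to 3 had 21411, 11474 and 15300.4 normalized counts, and *TDP-43iΔEC* mice 1 to 3 had 16840.2, 16796 and 18665. All *TDP-43iΔEC* values fell inside the control range, and the coefficient of variation was 31.2% in control and 6.12% in *TDP-43iΔEC* mice. The log2 fold change was 0.12 (SE 0.23, 0.754-fold to 1.56-fold, adjusted p = 0.891, limma), and it was -0.12 without control mouse 2 and 0.14 without *TDP-43iΔEC* mouse 1. Without control mouse 2 the median of all genes was -0.17.

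*Ctnnd1* encodes p120-catenin, the catenin that controls how long VE-cadherin stays at the surface, and lies on chromosome 2 (84425959 to 84489326, minus strand). Its normalized counts were 4546, 3126 and 4515 in control mice 1 to 3 and 7305, 4764 and 6411 in *TDP-43iΔEC* mice 1 to 3. Every *TDP-43iΔEC* mouse lay above every control mouse, although *TDP-43iΔEC* mouse 2 exceeded control mouse 1 by a margin smaller than the SD of either group (811 and 1289). The means were 4063 and 6160.2, and the log2 fold change of 0.58 (SE 0.26) had an interval from 0.993-fold to 2.25-fold. By limma the unadjusted p was 0.0533 and the adjusted p 0.544, rank 1283 of 13107. An exact permutation test (two-sided) gave p = 0.1, the smallest value that 3 against 3 mice allow. The estimate stayed above 0 under all 15 alternatives, from 0.36 to 0.81, with adjusted p from 0.332 to 0.828. It was 0.38 without control mouse 2 and 0.41 without *TDP-43iΔEC* mouse 1. The share of counts of the ribosomal RNA gene *Rn18s-rs5* also did not overlap between genotypes (14.8% to 18.5% in control and 8.04% to 13.6% in *TDP-43iΔEC* libraries), and its part in the *Ctnnd1* values was not tested. A gene on the same strand, *Gm28635*, covers 37.6% of the *Ctnnd1* exons and shares 34.8% of its 51-base stretches, and no library had a count assigned to it.

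Runs of TG in the DNA of a gene are transcribed as UG repeats, the sequence TDP-43 is known to bind, so the spans of the junction genes were searched on the transcribed sense strand for uninterrupted runs of 6 or more TG. The longest runs of *Ctnnd1*, *Cdh5* and *Ctnnb1* are shown: *Ctnnd1* is the gene whose groups did not overlap, and the other 2 encode the cadherin and the catenin of the same complex whose groups overlapped. All of these runs are in introns. The run is in capitals, flanked by 10 bases on each side, in GRCm39 and in the 5′ to 3′ direction of the gene.
Ctnnd1, chr2:84483501-84483562, minus strand, 21 repeats: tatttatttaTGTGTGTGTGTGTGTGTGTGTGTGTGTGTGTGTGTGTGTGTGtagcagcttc
Cdh5, chr8:104866923-104866986, plus strand, 22 repeats: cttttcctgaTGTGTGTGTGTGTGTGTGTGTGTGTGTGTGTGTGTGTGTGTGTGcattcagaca
Ctnnb1, chr9:120776526-120776577, plus strand, 16 repeats: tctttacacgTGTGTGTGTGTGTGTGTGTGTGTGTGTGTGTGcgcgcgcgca

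Such runs were found in all 9 genes, from 2 in *Nectin2* to 22 in *Ctnna1*, and the longest was one of 33 repeats in an intron of *Pecam1*. *Ctnnd1* had 7 runs, 1 of them in an exon, beside a median of 6 in the 1220 tested coding genes within 1.25-fold of its length. *Cdh5* had 3 runs, all intronic, beside a median of 4 in genes of like length. In *Jup*, 2 of 4 runs were exonic. Runs are common in this genome: 71.9% of the 11334 tested protein-coding genes had at least 1, and between 88.0% and 100% of those as long as each junction gene did. Counted per 100 kb, *Ctnnd1* (11.1), *Cdh5* (6.99) and *Ctnnb1* (12.4) stood above 69.0%, 48.3% and 74.9% of coding genes. A run is a description of the sequence and no binding was measured.

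*Nectin2*, on chromosome 7 (19450569 to 19484408, minus strand), encodes a nectin that binds nectins of the neighboring cell. By normalized count, before any division by length, it was the least abundant of the 9 genes, and it had the widest range, with 972, 271 and 721 normalized counts in control mice 1 to 3 and 549, 2352 and 1375 in *TDP-43iΔEC* mice 1 to 3. The highest and the lowest value differed by 8.69-fold, and *TDP-43iΔEC* mouse 1 fell below 2 control mice. Its log2 fold change was the largest of the 9, 0.86, but so was the SE, 0.71 (0.593-fold to 5.51-fold, adjusted p = 0.704, limma). The estimate was 0.32 without control mouse 2 and 1.62 without *TDP-43iΔEC* mouse 1. The mural marker sum was highest in *TDP-43iΔEC* mouse 2 (1120 CPM), as was *Nectin2*, and lowest in *TDP-43iΔEC* mouse 3 (448 CPM), which was second for *Nectin2*, and its part in the *Nectin2* values was not tested.

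*Afdn*, on chromosome 17 (13980555 to 14126680, plus strand), encodes afadin, which ties nectins to actin. Control mice 1 to 3 had 2629.6, 3228 and 2452 normalized counts and *TDP-43iΔEC* mice 1 to 3 had 2714, 1901 and 2662. Only *TDP-43iΔEC* mouse 2 lay outside the control range, below it. The log2 fold change was -0.22 (SE 0.27, 0.564-fold to 1.31-fold, adjusted p = 0.811, limma), with -0.13 without control mouse 2 and -0.35 without *TDP-43iΔEC* mouse 1.

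*Pecam1*, on chromosome 11 (106543689 to 106641454, minus strand), encodes CD31, an immunoglobulin-like receptor of EC borders. It was the most abundant of the 9, rank 60 of the 13107 tested genes by mean normalized count. Its values were 56070.1, 43538 and 40425 in control mice 1 to 3 and 55483, 56699 and 44119.6 in *TDP-43iΔEC* mice 1 to 3. Control mouse 1 lay among the *TDP-43iΔEC* mice, and the groups overlapped. The log2 fold change was 0.14 (SE 0.16, 0.863-fold to 1.41-fold, adjusted p = 0.787, limma), and it was 0.07 without control mouse 2 and 0.08 without *TDP-43iΔEC* mouse 1.

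**Figure D2:**
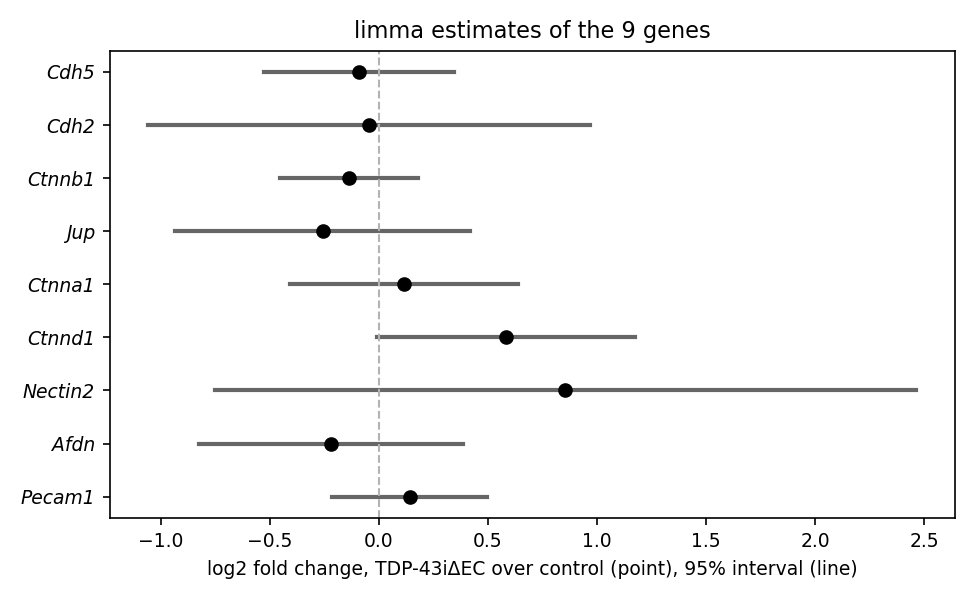
Log2 fold change of TDP-43iΔEC over control from limma (point) with its 95% interval, not adjusted for the number of genes (line), for the 9 junction genes. Every interval crosses 0; that of Ctnnd1 starts at -0.01 and that of Nectin2 is the widest, from -0.75 to 2.46.

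To compare levels between genes, normalized counts were divided by the length of the reference transcript. Per kb, *Pecam1* was highest at 13428 ± 2026 (SD over the 6 libraries), followed by *Ctnnb1* (7169.7 ± 775), *Jup* (5096 ± 1596), *Ctnna1* (4482 ± 890.3) and *Cdh5* (1556 ± 131). Lower levels were those of *Cdh2* (587 ± 228), *Ctnnd1* (496 ± 145), *Nectin2* (380.2 ± 272) and *Afdn* (317 ± 52.3). *Pecam1* exceeded *Ctnnb1* in all libraries without overlap of their ranges, and likewise *Ctnna1* exceeded *Cdh5*, and *Cdh5* exceeded *Cdh2*. Neighbors elsewhere in the order overlapped: *Ctnnb1* was above *Jup*, *Jup* above *Ctnna1*, *Cdh2* above *Ctnnd1* and *Ctnnd1* above *Nectin2* in 5 of 6 libraries each, and *Nectin2* above *Afdn* in 3 of 6. Per kb, the ratio to *Cdh5* within a library averaged 4.66 for *Ctnnb1* and 0.378 for *Cdh2* over the 6 libraries. With the length of all annotated exons in place of the reference transcript, *Ctnnd1* and *Cdh2* changed places and the rest of the order was the same.

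**Figure D3:**
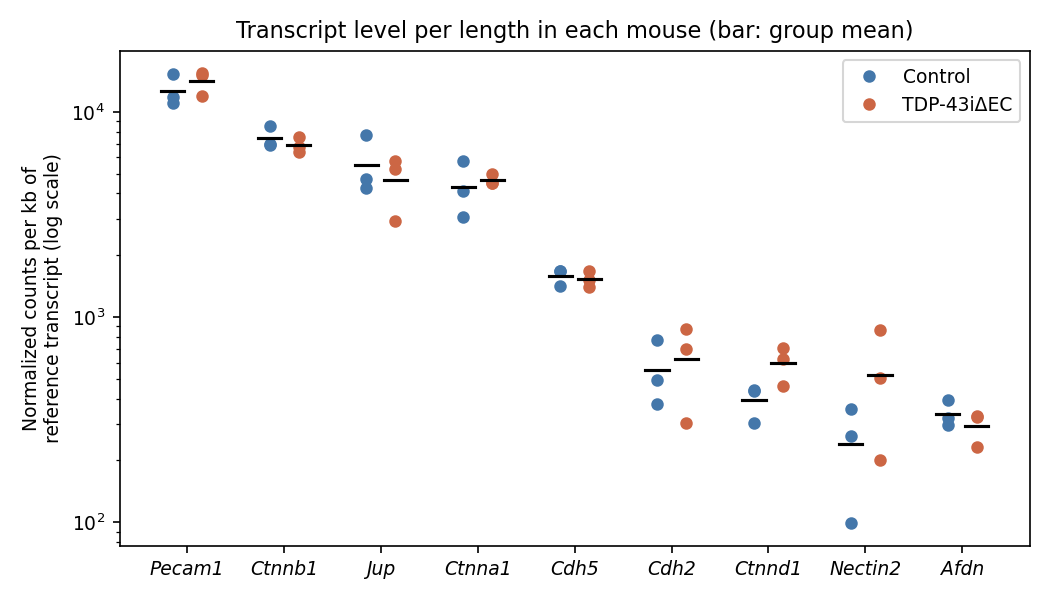
Normalized counts per kb of the reference transcript (vertical log axis) of the 9 genes in control (blue) and TDP-43iΔEC (orange) mice, with the group means as bars. Pecam1 is highest, 4 genes from Ctnnb1 to Cdh5 follow, and the 4 genes at the right reach at most 869.5.

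Ratios of 2 genes within a library do not depend on how libraries are scaled. The cadherin ratio, *Cdh2* counts per *Cdh5* count, was 0.569, 0.329 and 0.364 in control mice 1 to 3 and 0.245, 0.759 and 0.511 in *TDP-43iΔEC* mice 1 to 3, with a log2 difference of 0.16 (exact permutation p = 0.9, two-sided). Plakoglobin per β-catenin (*Jup* per *Ctnnb1*) was 1.01, 0.448 and 0.609 in control and 0.635, 0.776 and 0.419 in *TDP-43iΔEC* mice, with a log2 difference of -0.14 (exact permutation p = 0.8). β-Catenin per VE-cadherin (*Ctnnb1* per *Cdh5*) was 3.73, 5.50 and 3.79 in control and 4.49, 4.36 and 3.44 in *TDP-43iΔEC* mice, with a log2 difference of -0.07 (exact permutation p = 0.8). In these 3 tests the smallest attainable p was 0.1, and each ratio overlapped between genotypes. The ratio of *Ctnnd1* to *Cdh5* counts, chosen after the values were seen and therefore not tested, was 0.678, 0.552 and 0.674 in control mice 1 to 3 and 1.20, 0.846 and 0.951 in *TDP-43iΔEC* mice 1 to 3, without overlap (means 0.634 ± 0.0719 and 0.998 ± 0.181).

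**Figure D4:**
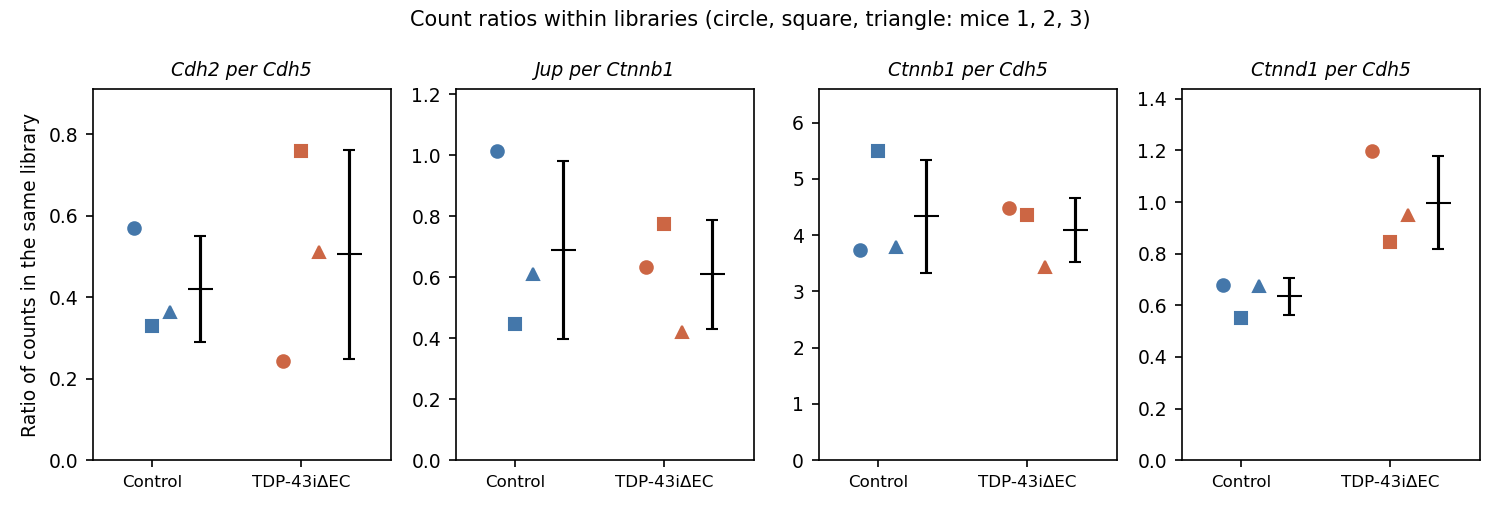
Ratio of the counts of 2 genes within each library (vertical axis, from 0) in control and TDP-43iΔEC mice; symbols are mice 1, 2 and 3, and bars with whiskers are the mean ± SD. Cdh2 per Cdh5, Jup per Ctnnb1 and Ctnnb1 per Cdh5 overlap between genotypes. Ctnnd1 per Cdh5, chosen after the values were seen, lies at 0.678 or below in control and at 0.846 or above in TDP-43iΔEC mice.

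The partners and regulators of these proteins were followed in 8 lists of 82 genes, of which 68 were tested and 13 had too few counts. With limma 0 of 68 passed an adjusted p of 0.05, 12 (17.6%) had an unadjusted p under 0.05 and 14 (20.6%) did not overlap between genotypes, beside 9.27% and 15.0% of all tested genes. By DESeq2, 2 passed, *Pcdh17* (adjusted p = 0.00448) and *Ssx2ip* (adjusted p = 0.0240), beside 1.91% (250) of all tested genes, and edgeR passed 0 with 9 at an unadjusted p under 0.05. *Cdh1*, *Cdh3*, *Cdh15*, *Cdh24* and *Nectin4*, cadherins and a nectin of other tissues for the most part, had 0 counts in every library, as had the phosphatase gene *Ptpn6*. *Ctnna2*, the α-catenin of neurons, had 2 counts in all libraries together.

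Of 7 other cadherins and protocadherins tested, 3 had estimates above 0 and 4 below (median -0.05). *Cdh13*, the gene of T-cadherin, which lacks a cytoplasmic tail, had 865, 0.890 and 675 normalized counts in control and 3213, 3914 and 3891 in *TDP-43iΔEC* mice. The groups were far apart, with a log2 fold change of 5.18 (SE 1.75, adjusted p = 0.440, limma). Control mouse 2 had 1 count, and the log2 fold change of DESeq2 was 2.84 (adjusted p = 0.703), and that of limma without control mouse 2 was 2.18. *Pcdh17* had 53.2, 30.3 and 91.7 in control and 1186, 363 and 482 in *TDP-43iΔEC* mice, with a log2 fold change of 3.63 (SE 1.45, adjusted p = 0.504, limma). *Cdh11*, a cadherin of mesenchymal cells, had the opposite order, with 1221, 2250.3 and 2506 in control and 500.4, 1086 and 348 in *TDP-43iΔEC* mice (log2 fold change -1.76, adjusted p = 0.395). *Pcdh1*, the most abundant with *Cdh13*, had an estimate of -0.05. The 2 tested relatives of the catenins, *Pkp4* and *Arvcf*, had estimates of -0.37 and 1.24, and both overlapped. The SE of *Arvcf* was 1.99, and its estimate was -0.24 without control mouse 2 and 0.19 with DESeq2.

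Among 12 linkers between junctions and actin (5 above 0, 7 below, median -0.19), the abundant *Actn4* and *Tln1* had estimates of 0.15 and 0.02. *Vcl*, the gene of vinculin, which α-catenin recruits under tension, had 4543, 10678 and 4000.0 normalized counts in control and 1044, 3144 and 5627 in *TDP-43iΔEC* mice, overlapping, with a log2 fold change of -1.36 (adjusted p = 0.530, limma) that was -0.93 without control mouse 2 and -0.52 without *TDP-43iΔEC* mouse 1. *Ajuba* had an estimate of 3.02 with an SE of 2.16 and 0 counts in control mouse 2, without which the estimate was -0.52. *Vasp*, an actin polymerization factor, did not overlap (352 to 717 in control and 798 to 828 in *TDP-43iΔEC* mice).

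In the list of other nectins and afadin partners (2 above 0, 4 below, median -0.52), *Ssx2ip*, which encodes the afadin- and α-actinin-binding protein ADIP, had 1830.2, 3343 and 2187 normalized counts in control and 558, 493 and 1101 in *TDP-43iΔEC* mice. The groups were apart, with the lowest unadjusted limma p of the 68 genes (log2 fold change -1.94, SE 0.46, adjusted p = 0.270). *Pvr*, an abundant gene of the list, had an estimate of 0.26. *Nectin3* (-3.68) and *Nectin1* (2.34) had the largest estimates and an SE of 2.28 each, with 0 counts in 1 library. Without those libraries, *TDP-43iΔEC* mouse 1 and control mouse 2, they were -0.46 and 0.38.

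Phosphatases and kinases that act on VE-cadherin numbered 10 (3 above 0, 7 below, median -0.19). *Ptprb* encodes VE-PTP, the receptor phosphatase that binds VE-cadherin. Its normalized counts were 31675, 39157 and 26979 in control and 24432, 24459.5 and 19358 in *TDP-43iΔEC* mice, without overlap (log2 fold change -0.53, SE 0.17, adjusted p = 0.395, limma). *Ptk2*, the gene of focal adhesion kinase, was without overlap in the other direction, 2077 to 3454 in control and 3541 to 5126 in *TDP-43iΔEC* mice (log2 fold change 0.71, adjusted p = 0.489). *Ptprm* (-0.12) and *Ptprj* (-1.61, SE 1.40) overlapped.

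The 16 genes of Rap1, cerebral cavernous malformation (CCM) and cytoskeletal control of junctions included 5 whose groups were apart (2 upward, 3 downward), beside 15.0% of all tested genes, with 7 estimates above 0, 9 below and a median of -0.10. *Heg1*, the transmembrane receptor that binds the CCM complex, had 21874, 25472 and 18866 normalized counts in control and 14432, 17560.5 and 14309 in *TDP-43iΔEC* mice (log2 fold change -0.55, SE 0.16, adjusted p = 0.360, limma). *Rasip1*, a Rap1 effector of ECs that acts with HEG1, had 3192, 6516 and 2873 in control and 1875, 2209 and 1649 in *TDP-43iΔEC* mice (log2 fold change -1.07, SE 0.38, adjusted p = 0.471). The Rac exchange factor *Tiam1* ranged from 3018 to 4972 in control and from 2163 to 2716 in *TDP-43iΔEC* mice (log2 fold change -0.77, adjusted p = 0.488). Of the Rap1 GTPases upstream of RASIP1, the more abundant *Rap1b* overlapped between genotypes, with an estimate of 0.06. *Rap1a* had higher values in all *TDP-43iΔEC* mice, 2275 to 2969 beside 1009.5 to 1643 in control (log2 fold change 0.93, SE 0.30, adjusted p = 0.420). *Ccm2* was likewise apart, 699 to 879 in control and 889 to 1175 in *TDP-43iΔEC* mice, with an estimate of 0.30. The most abundant genes of the list, *Cdc42* and *Rhoa*, had estimates of 0.08 and -0.20, and *Vav2* one of 2.25 with an SE of 3.23. None of these genes passed the adjusted threshold with limma, edgeR or DESeq2.

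In the list for the complex that marks β-catenin for degradation, 7 of 9 genes had estimates above 0 (median 0.51), beside 6461 of all 13107 tested genes. The list also held *Ctnnbip1* (-0.70), which encodes a β-catenin-binding protein that is not a part of that complex. The other estimate below 0 was that of *Apc*, a gene of the complex (-0.07, SE 0.43, adjusted p = 0.974, limma). Without control mouse 2, which had 0 counts of *Btrc*, 5 of 9 were above 0 and the median was 0.19, the lowest over the alternatives. *Gsk3b*, the kinase that phosphorylates β-catenin, had 3244, 886 and 3207 normalized counts in control and 4729, 3805 and 4030.2 in *TDP-43iΔEC* mice, without overlap (log2 fold change 0.96, SE 0.46, adjusted p = 0.558, limma), and the estimate without control mouse 2 was 0.33. *Csnk1a1*, the priming kinase, ranged from 3222 to 4906 and from 4801 to 7679 (log2 fold change 0.57, adjusted p = 0.549). The ubiquitin ligase adapters *Fbxw11* and *Btrc* had estimates of 0.40 and 4.11, with overlapping groups, and the scaffold *Axin1* one of 1.14 (SE 1.59). Without control mouse 2 these were 0.19, 0.63 and -0.26. No gene of this list had an unadjusted p under 0.05 with limma, and *Ctnnb1* counts show transcripts and not the protein this complex acts on.

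Of 6 other adhesion proteins of EC borders (2 above 0, 4 below, median -0.13), *Esam*, an immunoglobulin-like adhesion receptor, had 91712, 86585 and 70172 normalized counts in control and 63060.1, 78450.4 and 47599 in *TDP-43iΔEC* mice. *TDP-43iΔEC* mouse 2 lay inside the control range, and the log2 fold change was -0.44 (SE 0.17, adjusted p = 0.495, limma). *Eng* had an estimate of -0.25, and *Icam2*, 13977 to 16711 in control and 18243 to 20111 in *TDP-43iΔEC* mice, was apart between genotypes with an estimate of 0.25 (adjusted p = 0.602).

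**Figure D5:**
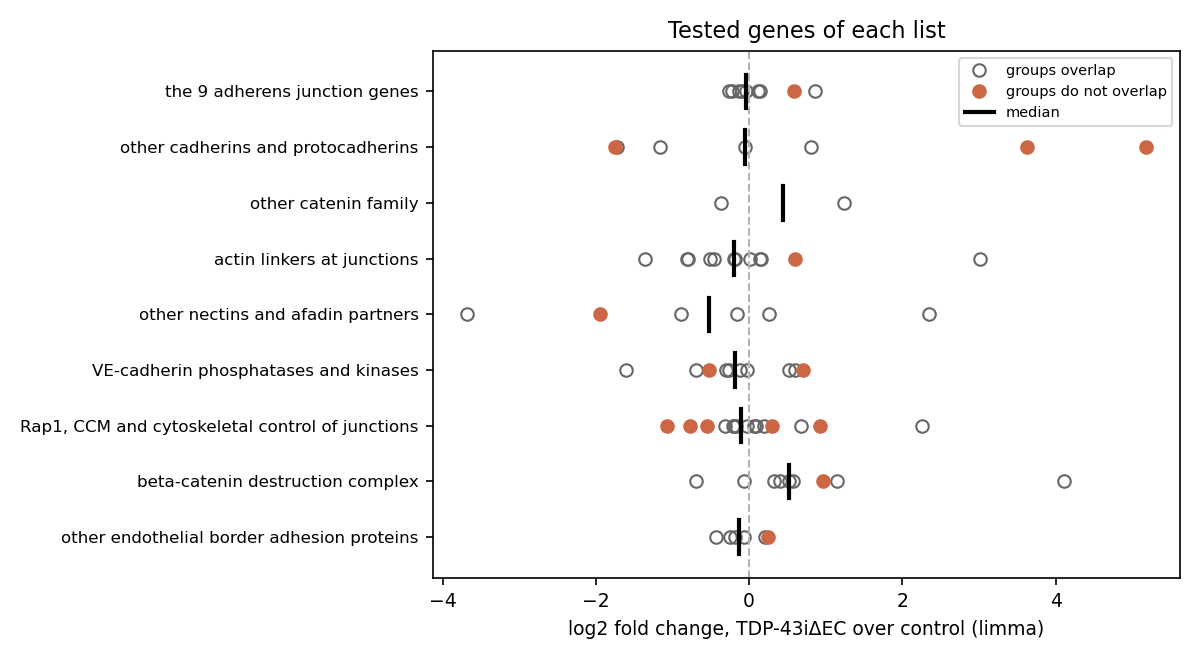
Log2 fold change of TDP-43iΔEC over control (horizontal axis, limma) of each tested gene in the 9 junction genes and in 8 lists of partners and regulators; filled points are genes whose groups do not overlap, and the vertical bar is the list's median. The 9 junction genes lie between -0.26 and 0.86, with medians of the lists between -0.52 and 0.51.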

How the data were processed

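Spinal cord ECs of 6 mice were profiled with SMARTseq2, which copies polyadenylated RNA and amplifies it by PCR without molecular identifiers. The authors aligned reads to GRCm39 with STAR 2.7.8a and GENCODE M30 and deposited estimated counts per gene from RSEM 1.3.0, unscaled; 0 values were not whole and 0 sample columns were left unused. In R 4.3.3, counts were filtered with filterByExpr (edgeR 4.0.16), scaled with TMM and fitted with limma 3.58.1 (voom, empirical Bayes) on all 6 libraries without covariates. The study's methods name limma with voom; scaling, filter and the lack of covariates were chosen here. Limma p values set the difference between genotypes against the spread between mice, moderated across genes. Its adjusted p values are Benjamini-Hochberg adjusted over 13107 genes, with a threshold of 0.05. Normalized counts are the deposited counts divided by DESeq2 1.42.0 size factors. Intervals of fold changes are at a 95% level. Positions, lengths and TG runs come from GENCODE M39, which matched 98.7% of identifiers. Exact permutation tests were two-sided, and their p values were not adjusted. The main limma fit was run on simulated data with known changes, and the alternatives were not.

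The members and lists were chosen with earlier results of these data known. Named are the 9 genes, *Tardbp*, and from each list the genes past the threshold, the 2 most abundant and the 2 with the largest change, plus the closest profiles to *Cdh5* and *Jup*. Further list genes without overlap or past DESeq2's threshold were named after their values were seen, as were *Rap1b*, *Ctnnbip1*, *Apc* and the single EC markers. *Ptprg*, of the phosphatase list, was not analysed here, and some genes that meet the naming rule are not reported here. Alternatives, changed 1 at a time, were edgeR's quasi-likelihood and DESeq2's Wald tests, DESeq2 size factors, library size only, scaling to 8 EC markers, no filter, at least 10 counts in every library, a replicate block, sample quality weights and leaving out each mouse. Every pair of libraries differed beyond counting noise (chi-square per degree of freedom at least 162).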

Additional observations from a re-analysis of the deposited data

How the results depend on the processing

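0 of the 9 junction genes were called under all 15 alternatives. Over all genes, 18 calls became 0 with edgeR (848 at an unadjusted p under 0.05), 250 with DESeq2, 10 with library size only, 9 with EC marker scaling, 76 without a filter, 39 with at least 10 counts in every library, and 0 (without *TDP-43iΔEC* mouse 1) to 13 with 1 mouse left out (without control mice 1 and 2, 3 and 10; without *TDP-43iΔEC* mice 2 and 3, 3 and 2). DESeq2 called 2 genes of the partner lists and the other 14 alternatives 0, and *Tardbp* with it was -1.65 (adjusted p = 0.0216). Library size and EC marker scaling moved the median of all genes to 0.18 and 0.22, and leaving out control mouse 2 moved it to -0.17. With these 2 scalings the log2 fold changes of *Cdh5* were 0.10 and 0.14, of *Ctnnb1* 0.048 and 0.095 and of *Cdh2* 0.16 and 0.18, and with EC marker scaling that of *Afdn* was 0.016, none above the shift of all genes. *Cdh2* was 0.14 with edgeR and 0.18 with DESeq2, and *Ctnna1* -0.054 with quality weights. *Ctnnd1*, *Pecam1* and *Nectin2* stayed above 0 throughout. The median of the 9 genes ranged from -0.12 to 0.23, and the medians of the partner lists changed sign under at least 1 alternative, except those of the nectin and afadin partners (below 0) and of the destruction complex (above 0). With 1 mouse left out, *Ctnna1* ranged from -0.12 to 0.35, *Cdh2* from -0.38 to 0.53, *Jup* from -0.45 to 0.0097, and the log2 ratios of *Cdh2* to *Cdh5* from -0.21 to 0.61, of *Jup* to *Ctnnb1* from -0.41 to 0.18 and of *Ctnnb1* to *Cdh5* from -0.17 to 0.11. Genes of the 9 without overlap numbered 1 to 3. With fewer mice, groups are apart more easily. The share of 15.0% of all tested genes is for all 6 libraries, and no such share was computed with 1 mouse left out. Beside *Ctnnd1*, the genes of the 9 without overlap were *Ctnna1* and *Pecam1* without control mouse 1, *Cdh5* without control mouse 2, and *Ctnnb1* and *Nectin2* without *TDP-43iΔEC* mouse 1. Size factors were computed anew from the remaining libraries here, and with those of all libraries *Cdh5* overlaps. The cause was not tested.

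Same-numbered mice did not deviate together (correlations -0.06, -0.13 and -0.03), so the numbers gave no sign of pairing. Differently numbered mice were not compared in this way, and a shared litter or preparation day was not tested. With the replicate block, 22 genes were called, *Cdh2* was 0.037 and *Ctnnd1* 0.57 (adjusted p = 0.602).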

Other observations

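The genes whose level followed that of *Cdh5* most closely over the 6 libraries, by the root mean square difference of centered log2 CPM, were *Elk3* (0.044), *Polr2f* (0.057) and *Coa3* (0.057). For *Jup* they were *Ilkap* (0.069), *Pgls* (0.136) and *Elmo2* (0.143). *Ctnnd1* counts per *Ctnnb1* count, a ratio chosen after the values were seen, were 0.182, 0.1003 and 0.178 in control mice 1 to 3 and 0.267, 0.194 and 0.276 in *TDP-43iΔEC* mice 1 to 3. Per *Ctnna1* count they were 0.212, 0.272 and 0.295 in control and 0.434, 0.284 and 0.343 in *TDP-43iΔEC* mice, which overlap.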
